A study of Mus musculus with 88 samples.

Results

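Cluster 17 is a group of 125 single cells, out of 4949 in all, that the authors' clustering of mouse embryoid body cells set apart at resolution 2.5. Its members were taken from the deposited cluster column and not chosen again here. Of these cells, 100 came from Jarid2 null embryoid bodies and 25 from Mtf2 null embryoid bodies, so 20% of the cluster carried another genotype than the one it is richest in. No WT or Eed null cell was a member. In its 125 cells, Dppa3 and Nanog, the genes that mark it, were read at 625.6 and 391 CPM (counts per 1e+06, here the UMIs of a gene summed over the cells, relative to all their UMIs), against 129 and 188 CPM in the 4824 other cells. Dppa3 was seen in 115 of the 125 cells and not in the other 10, so the cells are called cluster 17 here and are given no cell type name. The 2 genes lie on chromosome 6 of GRCm38, Dppa3 (ENSMUSG00000046323) from 122626410 to 122630272 and Nanog (ENSMUSG00000012396) from 122707489 to 122714633. Processed copies of both genes exist, and reads shared with such copies cannot be told apart from those of the genes.

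Dppa3, also called Stella, is a maternal factor that protects methylated DNA from oxidation and is read in naive pluripotent cells and in primordial germ cells, the founders of sperm and eggs. In the mouse embryo the germ cell fate is induced in a few epiblast cells, where the repressor Prdm1 (BLIMP1) and the factors Prdm14 and Tfap2c shut down somatic genes, bring back pluripotency genes such as Nanog, and lower the de novo DNA methyltransferases. JARID2 and MTF2 are accessory subunits of alternative forms of Polycomb repressive complex 2 (PRC2), which methylates histone H3 at silenced developmental genes, and EED is a core subunit of both forms.

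Embryonic stem cells of 4 labelled genotypes (Jarid2 null, Mtf2 null, Eed null, and WT) were grown in serum with LIF, aggregated, and differentiated as embryoid bodies by withdrawal of LIF. Live cells, negative for the dye 7-AAD, were sorted singly into multiwell plates at days 0, 4, 7, and 10 and sequenced by SORT-seq, a 3′ method with UMIs, with 1 library per genotype and day. Each genotype stands for a single mutant line, and the WT line, E14, is not the wild type that the study names as matched to any of the mutant lines, although all samples carry the strain label E14. A difference between genotypes can therefore not be told apart from a difference between lines or between plates, and all values below describe these libraries without a test between genotypes or days.

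Cells of cluster 17 were as deeply read as all other cells pooled over the libraries. Their median was 6821 UMIs and 2841 genes per cell, against 6646.5 UMIs and 2863 genes. Within each of the 4 libraries with at least 10 members, they were read more deeply than the other cells. The medians were 10231 against 6557 UMIs in Jarid2 null cells of day 4 and 6821 against 5193 at day 7. They were 5892 against 5405 UMIs at day 10, and 9607.5 against 7285 in Mtf2 null cells of day 4. Shares of cells with a UMI are not matched for this depth unless cells were thinned. The depth of the members ran from 1418 to 23979 UMIs, and 8 of them held under 2500. Most cells of cluster 17 stayed together at resolutions 3, 5, and 8 of the authors' clustering, where 105, 104, and 123 of the 125 shared a cluster. That cluster held 172, 169, and 129 cells in all. The grouping was thus closely kept at resolution 8, while at resolutions 3 and 5 the shared cluster took in many other cells. Every well barcode recurs between libraries, as each plate uses the same set, and no pair of cells had identical counts. The targeted genes bore out the labels for Mtf2 and Eed, with 53.7 to 61.1 CPM of Mtf2 in the Mtf2 null libraries against 365 to 793 CPM in WT libraries, and 1.33 to 11.5 CPM of Eed in the Eed null libraries against 115 to 478 CPM. Jarid2 transcripts were still read in the Jarid2 null libraries, at 115 to 185 CPM against 215 to 594 CPM in WT libraries and 184 to 884 CPM in Mtf2 null libraries, so this gene does not set the Jarid2 null libraries wholly apart.

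Cluster 17 took a larger share of the Jarid2 null library at each later day. At day 0 it held 2 of 337 Jarid2 null cells (0.593%, exact 95% interval 0.072 to 2.13%), at day 4 it held 14 of 321 (4.36%, 2.40 to 7.21%), at day 7 it held 35 of 302 (11.6%, 8.21 to 15.7%), and at day 10 it held 49 of 264 (18.6%, 14.1 to 23.8%). The Mtf2 null libraries ran the other way after day 4, with 0 of 347 cells at day 0, 18 of 331 at day 4 (5.44%), 5 of 344 at day 7 (1.45%), and 2 of 321 at day 10 (0.623%). At day 4 the intervals of the Jarid2 null and Mtf2 null shares overlap, and at days 7 and 10 they do not. The 1201 WT cells and the 1181 Eed null cells held none, which allows shares of up to 0.25% and 0.254% at the limit of 3 counts. Over all days cluster 17 took in 8.17% of the Jarid2 null and 1.86% of the Mtf2 null cells. These intervals cover counting error alone and leave out differences between plates or embryoid body cultures, which a single library cannot show.

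**Figure D1:**
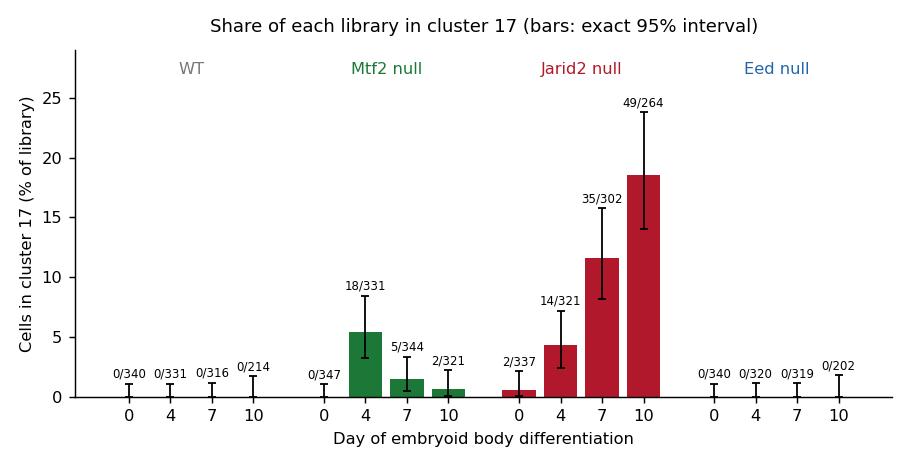
Percent of the cells of each single-cell library (y axis) that belong to cluster 17, by day of differentiation (x axis) and genotype (colour), with exact 95% binomial intervals and the cell counts above the bars. The Jarid2 null bars run from 0.593% at day 0 to 18.6% at day 10, the Mtf2 null bars peak at 5.44% at day 4, and WT and Eed null libraries hold no cell of the cluster.

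Among the 22 clusters, cluster 17 had the highest summed level of Prdm1, Tfap2c, and Nanog, and the second highest of Dppa3. Dppa3 was read at 625.6 CPM (95% Poisson interval 577 to 678) in cluster 17 and at 666 CPM (633 to 702) in cluster 10, a cluster of Eed null cells, and these intervals overlap. Prdm1 stood at 115 CPM (94.9 to 139) in cluster 17 and at 26.7 CPM in cluster 10, and Tfap2c at 274 CPM (242 to 310) and 118 CPM. Cluster 10 thus shared the Dppa3 level of cluster 17 and not its Prdm1 or Tfap2c level. The next highest level of Prdm1 was 76.6 CPM (52.4 to 108) in cluster 21, and its interval overlaps that of cluster 17. Nanog was 391 CPM (352 to 432) in cluster 17 and 383 CPM (357 to 410) in cluster 10, and these intervals overlap. Cluster 18, whose cells are rich in the globin gene Hba-a1 (13122 CPM) and should lack these genes, gave 3.46 CPM of Dppa3 in 2.63% of its cells at a median of 6004 UMIs, against 92% of the cells of cluster 17. Over 7425 genes the summed profile of cluster 17 correlated most with that of cluster 5 (Pearson r = 0.968 across genes), followed by clusters 2 (0.950), 0 (0.941), and 12 (0.938), and genes are not independent replicates.

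**Figure D2:**
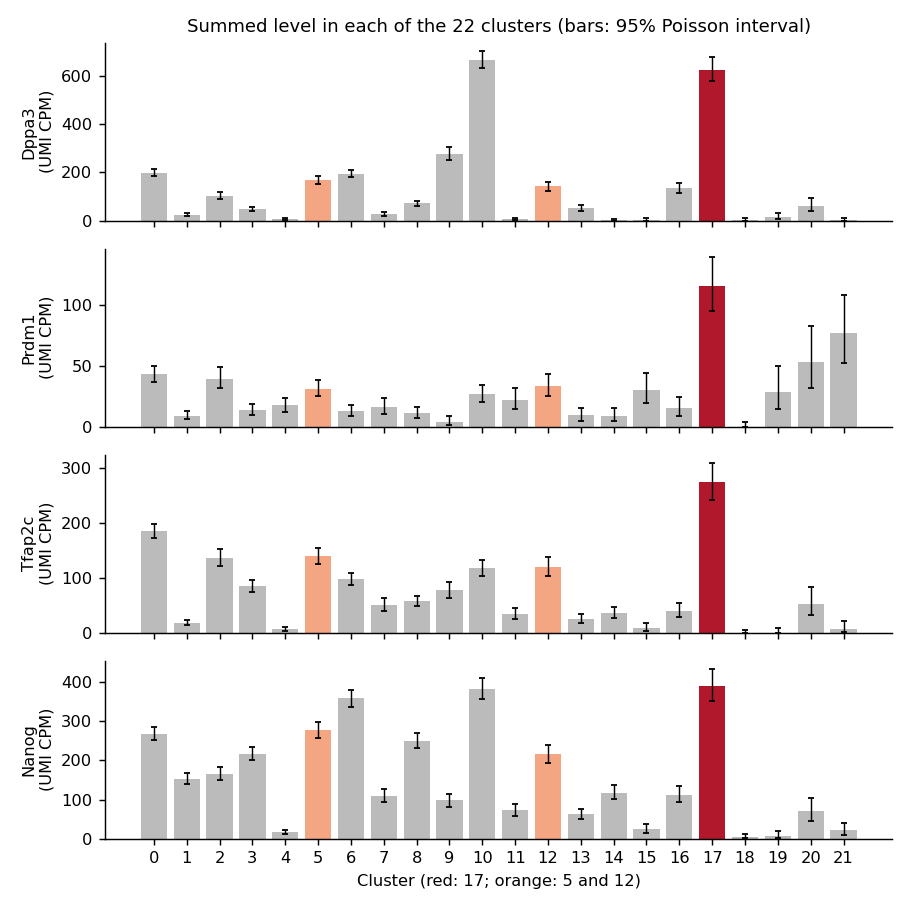
Summed UMI CPM (y axes) of Dppa3, Prdm1, Tfap2c, and Nanog in each of the 22 clusters (x axis), with 95% Poisson intervals that cover counting error alone. Cluster 17 (red) is the highest bar for Prdm1 (115 CPM), Tfap2c (274 CPM), and Nanog (391 CPM), and for Dppa3 (625.6 CPM) it stands beside cluster 10 (666 CPM).

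The genes that stood out most in cluster 17 against all other cells were led by germ cell regulators. Since the clusters were made from these same counts, the differences describe the cluster and carry no test. Among genes with at least 50 CPM in either group, 2.03% (95 of 4682) were more than 2-fold higher in cluster 17 and 4.49% (210) more than 2-fold lower, as log2 ratios of CPM plus 5. The 15 genes with the highest ratio began with Dppa3 (log2 ratio 2.23) and Prdm1 (2.17, 115 against 21.7 CPM). The ETS factor Elf3 followed at 2.07 (121 against 25 CPM). Ifitm1, an interferon-induced membrane protein read in early germ cells, was among the most abundant of them, at 1107 CPM (1041 to 1175) against 296 CPM (1.89). Tfap2c had a log2 ratio of 1.71.

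The other genes of the 15 had less to do with each other. Ap3b2, a subunit of the neuronal AP-3 adaptor, stood at 67.5 against 14.1 CPM, the iron exporter Slc40a1 at 122 against 29.5 CPM, and the actin-binding protein gene Lima1 at 344 against 92.4 CPM. Ptpn6, the phosphatase SHP-1, was read at 96.6 against 24.8 CPM, and Porcn, which lipidates Wnt ligands, at 118 against 33.4 CPM. Sox15, a Sox factor, stood at 113 against 33.1 CPM, and the PHD finger genes Phf11a and Phf11d at 79 and 162 CPM against 22.5 and 51.4 CPM. Epp13 (79 against 17.8 CPM) and the pseudogene Sms-ps (59.2 against 14.5 CPM) completed the set, and reads of Sms-ps may belong to its parent gene. Slc40a1 rested on fewer cells than its level would imply, with a UMI in 24.8% of cluster 17 cells, while Lima1 had one in 77.6%.

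The lowest ratios against all other cells belonged to genes of differentiated cells. These were the globin genes Hba-a1 (14.5 against 322 CPM), Hba-x (48.8 against 739 CPM), and Hba-a2 (21.8 against 307 CPM), the collagen genes Col1a1 and Col1a2 (1.04 CPM each, against 55.5 and 62 CPM), the insulin-like growth factor binding protein gene Igfbp5 (4.16 against 132 CPM), Ahnak (1.04 against 75.2 CPM), and Vim, which encodes the filament protein vimentin (24.9 against 308 CPM).

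Of 26 germline genes listed, 25 were in the table and 11 reached 50 CPM, of which 8 were more than 2-fold higher in cluster 17 than in all other cells and none was more than 2-fold lower. Their median log2 ratio was 1.41, beside 0.00 over all 4682 genes. The limit of 50 CPM applied to either group. Prdm1, Kit, and Dmrt1 passed it through cluster 17 alone, and Mael, which was lower, passed it in neither. The count and the median of this list thus describe the cluster and carry no test. Dppa3, Prdm1, Tfap2c, and Ifitm1 are both in this list and among the 15 leading genes. Other members were Kit, the receptor that germ cells need to migrate and survive (132 against 42.1 CPM, log2 ratio 1.54), Dmrt1, a germ cell transcription factor (67.5 against 22.4 CPM, 1.41), Ifitm3 (798 against 313 CPM, 1.34), and Alpl, the alkaline phosphatase used to stain germ cells (186 against 87.9 CPM, 1.04). Prdm14 and the RNA-binding protein gene Dnd1 were at 33.3 and 46.8 CPM against 11.1 and 18.6 CPM. Genes of later germ cells did not share one direction. Ddx4 was at 26 against 19.2 CPM and Mael at 3.12 against 15.5 CPM. Dazl was at 42.6 against 26.6 CPM, but the other Eed null cells held 80.7 CPM of it and the other Jarid2 null and Mtf2 null cells 7.29 and 9.40 CPM. Nanos3 was not in the table used here.

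Naive pluripotency genes were split. Of 17 at 50 CPM or more, 4 were more than 2-fold higher and 3 more than 2-fold lower in cluster 17, with a median log2 ratio of 0.46. Nanog had a ratio of 1.04, Tdh, the threonine dehydrogenase of mouse embryonic stem cells, of 1.28 (606.9 against 248 CPM), Nr5a2, a nuclear receptor, of 1.2 (104 against 42.4 CPM), and Pecam1 of 1.182 (64.4 against 25.6 CPM). Esrrb, an orphan nuclear receptor, stood at 206 against 107 CPM and Klf2 at 912 against 467 CPM, each just under 2-fold. By contrast Klf4 was read at 19.7 (11.9 to 30.8) against 116 CPM, Tbx3 at 11.4 against 95.2 CPM, and Zfp42, which encodes the naive marker REX1, at 103 against 286 CPM. Nr5a2 and Pecam1 reached 50 CPM in cluster 17 alone, and Klf4 and Tbx3 in the other cells alone. The direction of Zfp42 turned within libraries. The other cells held 345 CPM in WT and 653 CPM in Eed null libraries, but 93.2 and 80.2 CPM in Jarid2 null and Mtf2 null libraries. Within its own library cluster 17 was lower in Jarid2 null cells of day 4 (53.4 against 95.3 CPM) and higher at day 7 (77.5 against 51.4 CPM), at day 10 (133 against 15.1 CPM), and in Mtf2 null cells of day 4 (135 against 83.3 CPM). Of 11 core pluripotency genes none was more than 2-fold higher and 2 were lower, Tdgf1, the Nodal co-receptor (280 against 714 CPM), and Dnmt3l (142 against 319 CPM). Pou5f1, which encodes OCT4, was at 96.7 against 66.7 CPM and Sox2 at 1105 against 690 CPM.

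Formative epiblast genes and the de novo methyltransferases were among the groups that stood low. Of 7 formative genes at 50 CPM or more, 4 were more than 2-fold lower than in all other cells and none was higher. Their median log2 ratio was -1.22. The limit of 50 CPM applied to either group, and Pou3f1 passed it through the other cells alone. This count and median thus describe the cluster and carry no test. Dnmt3b was read at 108 (88.3 to 131) against 472 CPM, Dnmt3a at 54 against 158 CPM, and the POU factor gene Pou3f1 at 38.5 against 107 CPM. Otx2, an epiblast and neural regulator, did not share this pattern and stood at 212 against 164 CPM. Among 9 genes of DNA methylation and demethylation, the 3 more than 2-fold lower were Dnmt3a, Dnmt3b, and Dnmt3l. For Dnmt3l the direction turned within libraries, since the Eed null cells held 676 CPM. Against its own library cluster 17 was lower in Jarid2 null cells of day 4 (45.8 against 161 CPM) and not at day 7 (99 against 60.3 CPM), at day 10 (5.76 against 2.88 CPM), or in Mtf2 null cells of day 4 (430 against 404 CPM). The maintenance enzyme gene Dnmt1 was level (191 against 192 CPM), its partner Uhrf1 lay at 92.5 against 158 CPM, and the demethylating enzyme gene Tet1 at 721 against 601 CPM.

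**Figure D3:**
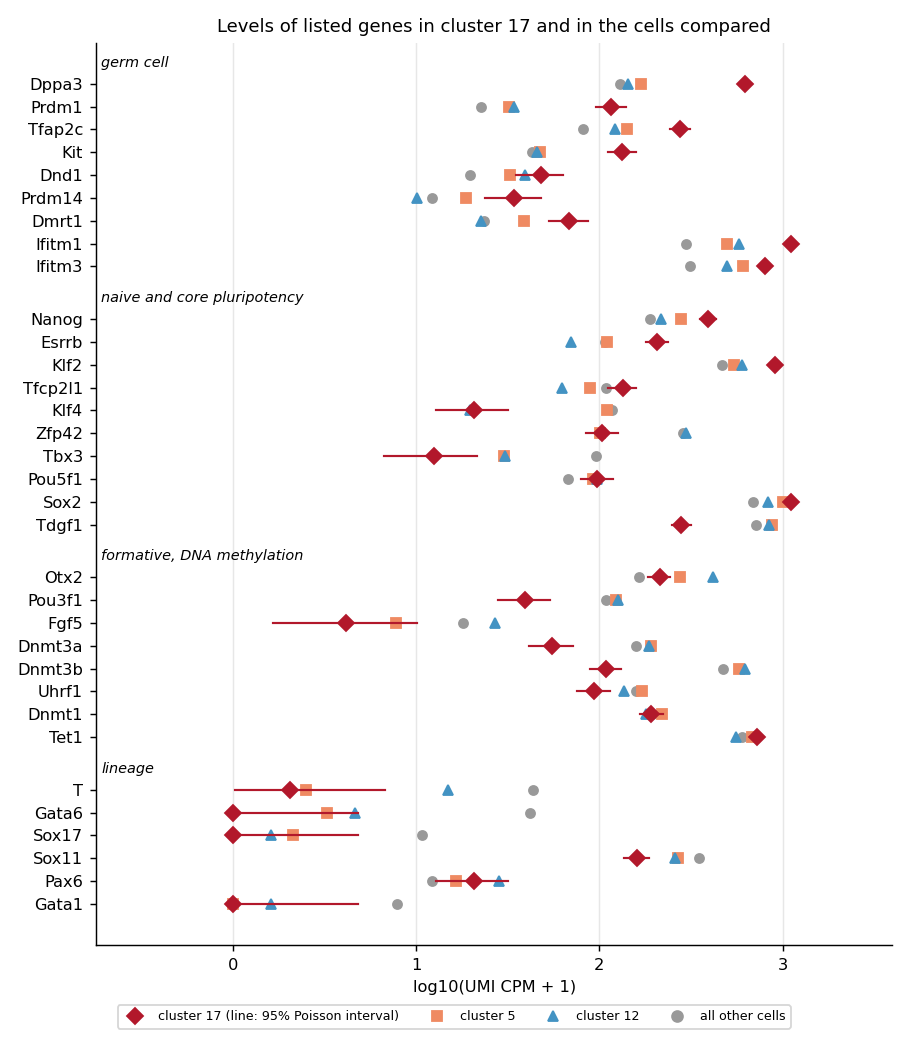
Summed UMI level, as log10 of CPM plus 1 (x axis), of germ cell, pluripotency, formative, DNA methylation, and lineage genes (y axis) in cluster 17 (diamonds, line for the 95% Poisson interval), cluster 5, cluster 12, and all other cells. Dppa3 (625.6 CPM) and Prdm1 (115 CPM) stand to the right of the cells compared, Dnmt3b (108 CPM) and Dnmt3a (54 CPM) to the left, and Gata6, Sox17, and Gata1 have 0 UMIs in cluster 17.

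Most markers of other cell types were near 0, with Sox11 and Eomes as exceptions. The primitive streak gene T (Brachyury) had 1 UMI in the 125 cells, and Mesp1, Sox17, Foxa2, Gata6, Cdx2, Cdh5, and Gata1 had none, which allows up to 3.12 CPM at the limit of 3 counts. The 4 streak markers together reached 28.1 CPM in cluster 17 against 116 CPM in all other cells, of which Eomes gave 26 CPM. The 5 endoderm markers reached 12.5 against 79.1 CPM with 3 of 5 at 0, the 3 trophoblast markers measured 10.4 against 17.4 CPM with 1 at 0, and the 4 endothelial and blood markers 3.12 against 29 CPM with 2 at 0. Of the 12 genes in the longer endothelial and blood list, 3 reached 50 CPM, of which 2 were more than 2-fold lower and 1, Pecam1, which is also in the naive list, was higher. The 5 neural markers reached 185 against 394 CPM, of which Sox11 gave 159 CPM. In cluster 5 the streak, endoderm, trophoblast, and endothelial and blood sums were 21.8, 9.40, 3.38, and 1.88 CPM. Such low sums were therefore not particular to cluster 17. The neural sum of cluster 5 was 300 CPM. Hba-x was the exception to low blood genes, and its 47 UMIs came almost wholly from the day 10 cells described below. Genes of the 2-cell-like state were not seen either, with 0 UMIs of Zscan4a, Zscan4c, Zscan4d, and Zscan4f.

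Cell cycle genes were close to their level in the other cells. Of 26 genes of S and G2/M phase, Cenpf, a kinetochore protein gene, was more than 2-fold higher (586 against 277 CPM), none was lower, and the median log2 ratio was 0.28. Of 8 PRC2 genes at 50 CPM or more none differed by more than 2-fold. Phf19, an accessory subunit of the same class as MTF2, lay below that level at 37.4 (26.2 to 51.8) against 7.77 CPM. Of 14 imprinted genes, 9 were more than 2-fold lower and none higher, among them Dlk1 (60.3 against 345 CPM), Mest (61.3 against 332 CPM), and Phlda2 (85.2 against 365 CPM). Meg3 was also lower (14.5 against 169 CPM), but its level differed between lines as a whole, at 373 to 1355 CPM in WT libraries and 12.1 to 85.9 CPM in Jarid2 null libraries. The low level of imprinted genes was shared with cluster 5, the most similar cluster. Against it 1 of 10 was more than 2-fold higher and 1 lower, with a median log2 ratio of -0.17, beside -1.51 against all other cells. Against cluster 12, 2 of 12 were higher and 3 lower (median -0.40).

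To hold genotype, day, and plate the same, cluster 17 was set against the other cells of its own library in the 4 libraries with at least 10 members. Dppa3 was higher in each. It stood at 458 against 87 CPM in Jarid2 null cells of day 4 (log2 ratio 2.33), at 693 against 85.4 CPM at day 7 (2.95), at 686 against 41.8 CPM at day 10 (3.88), and at 495 against 92.4 CPM in Mtf2 null cells of day 4 (2.36). Between days 4 and 7 the level within the cluster was the one that differed, and between days 7 and 10 the level in the other cells. All 15 leading genes were higher in each of the 4 libraries, and Dppa3, Prdm1, Ifitm1, Tfap2c, Phf11a, and Phf11d were more than 2-fold higher in each. The genes had been chosen on the same cells, so this is no independent evidence. For those more than 2-fold higher in each, no single library carried the difference. Others were barely higher in some libraries, with lowest log2 ratios of 0.14 for Elf3, 0.16 for Porcn, and 0.27 for Ap3b2. Elf3 was at 76.3 CPM (36.6 to 140) in Jarid2 null cells of day 4, against 68.6 CPM. Its order there lies within counting error.

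Other genes shared less of the pattern between libraries. Nanog was 2-fold or more above its own library in 2 of 4, with log2 ratios of 0.19 and 0.46 in Jarid2 null cells of days 4 and 7, 1.64 at day 10, and 1.07 in Mtf2 null cells of day 4. Kit was lower than the rest of its library at day 4 in Jarid2 null cells (38.2 against 52.3 CPM) and higher in the other 3. Dnmt3b was lower in each library, at 145 against 618 CPM, 155 against 1040 CPM, and 17.3 against 192 CPM in Jarid2 null cells of days 4, 7, and 10, and at 195 against 840 CPM in Mtf2 null cells of day 4. Otx2 was lower in the cluster in Mtf2 null cells of day 4 alone by a wide margin (40 against 239 CPM), with log2 ratios of 0.57, 0.13, and -0.35 in the Jarid2 null libraries.

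**Figure D4:**
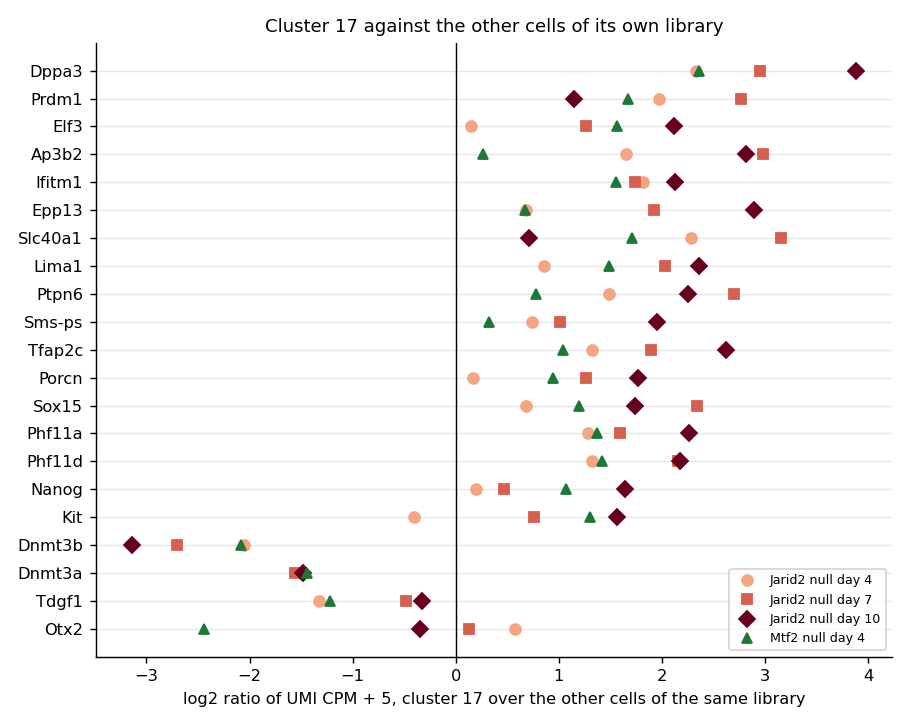
Log2 ratio of UMI CPM plus 5 (x axis) between cluster 17 and the other cells of the same library for the 15 leading genes, Nanog, Kit, Dnmt3b, Dnmt3a, Tdgf1, and Otx2 (y axis) in the 4 libraries with at least 10 cells of the cluster. The ratio of Dppa3 lies between 2.33 and 3.88, Dnmt3b lies left of 0 in each library, and Otx2 spreads from -2.44 in Mtf2 null cells to 0.57 in Jarid2 null cells of day 4.

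Each library had genes of its own among those furthest apart. In Jarid2 null cells of day 4 these included the Nodal antagonists Lefty1 (313 against 55.6 CPM) and Lefty2 (641 against 121 CPM), and Id1, a BMP target, was low (7.63 against 119 CPM). At day 7 the cluster held Slc40a1 (151 against 12.5 CPM), Pecam1 (90.4 against 5.97 CPM), and the X-linked homeobox genes Rhox6 and Rhox9 (51.7 CPM each, against 2.39 and 1.79 CPM), while T was at 0 against 118 CPM, at least 9.16-fold lower. At day 10 it held Nr5a2 (184 against 18 CPM), Dppa5a, a pluripotency-associated gene (939 against 110 CPM), and the oncogene Tcl1 (83.5 against 4.32 CPM). Dazl had 26 UMIs there against 0 in the other 215 cells, at least 34.7-fold higher, but in 10.2% of the 49 cells. In Mtf2 null cells of day 4 the lowest genes included Podxl and Lrp2, both with 0 UMIs, against 66.7 and 56.5 CPM.

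Cluster 17 held a growing part of the Dppa3 transcripts of the Jarid2 null embryoid bodies. It supplied 22.4% of the Dppa3 UMIs of the day 4 library from 4.36% of its cells, 53% (47.2 to 58.7%) at day 7 from 11.6% of the cells, and 80.4% (75.4 to 84.8%) at day 10 from 18.6% of the cells. At day 4 of the Mtf2 null series it supplied 29.7% from 5.44% of the cells. For Tfap2c the shares in the Jarid2 null libraries were 12.3, 35.2, and 62.6%, and for Nanog 5.91, 16.2, and 44.4%. Prdm1 was 19.4, 53.6, and 37.3%, so at day 10 most Prdm1 UMIs came from other cells. Of the UMIs of all genes, the cluster supplied 5.19, 12.2, and 20.0% in the Jarid2 null libraries. In the Mtf2 null library of day 4 it supplied 7.32% of them. The interval of the Nanog share at day 4 (3.82 to 8.67%) contains the share of all UMIs. At day 7 it began just above that share (12.8 to 20.0%).

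UMIs of Dppa3, Prdm1, and Tfap2c were all present in 39 of 125 cells of cluster 17 (31.2%, 23.2 to 40.1%), against 3.69% of all other cells, 7.30% of cluster 5, and 7.89% of cluster 12. The 3 genes were chosen for their levels here. Their single shares in cluster 17 (92%, 46.4%, and 72.8%) multiply to 31.1%, so the share with all 3 says no more than the single genes do. Of the remaining 86 cells, 65 held UMIs of 2 of the 3 genes, 17 of 1, and 4 of none. With each cell thinned to 2500 UMIs, and the 8 cluster 17 cells below that left out, all 3 were present in 12 of 117 cells (10.3%, 5.41 to 17.2%), against 0.576% of other cells, 0.352% of cluster 5, and 1.55% of cluster 12. By genotype, all 3 were present in 33% of the 100 Jarid2 null and 24% of the 25 Mtf2 null members, with overlapping intervals (23.9 to 43.1% and 9.36 to 45.1%). After thinning they were present in 12.9% (6.85 to 21.5%) of 93 Jarid2 null members and in 0 of 24 Mtf2 null members (0 to 14.2%), and these intervals overlap too.

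Single cells of cluster 17 differed widely in Dppa3, with a median of 591 CPM, quartiles of 313 and 928 CPM, a highest value of 2639 CPM, and 10 cells without a UMI. The median was 401 CPM in Jarid2 null cells of day 4, 647 CPM at day 7, 712 CPM at day 10, and 439 CPM in Mtf2 null cells of day 4. In clusters 5 and 12 the median cell had none, and 48.3% and 31.1% of cells had a UMI, at median depths of 7618 and 5857 UMIs. Their highest cells reached 1622 and 1979 CPM, inside the range of cluster 17, so single cells of the clusters overlap for this gene. Prdm1 was sparser, with a UMI in 46.4% of cluster 17 cells against 18.4% and 17.1% in clusters 5 and 12.

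**Figure D5:**
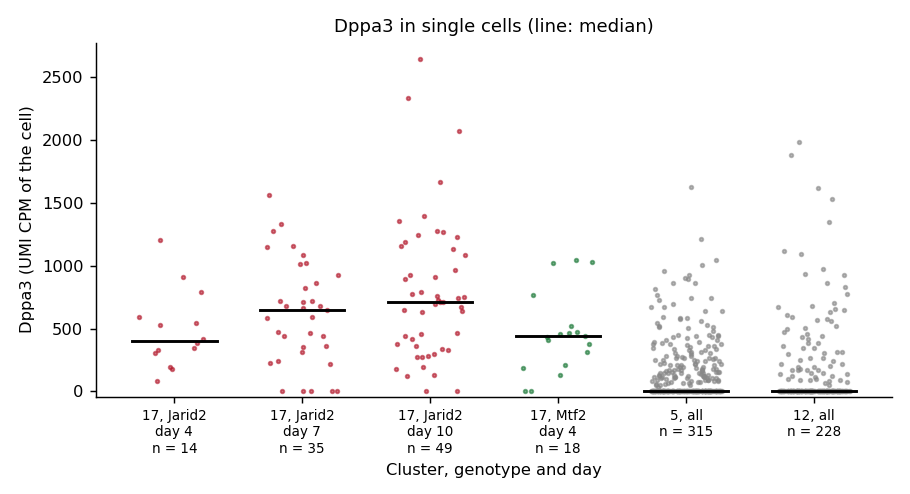
Dppa3 in single cells, as UMI CPM of the cell (y axis), for cluster 17 by genotype and day (the 4 libraries with at least 10 of its cells) and for all cells of clusters 5 and 12 (x axis), with the median as a line. The medians of cluster 17 lie between 401 and 712 CPM and those of clusters 5 and 12 at 0, while the highest cells of all groups overlap.

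Cluster 5, the most similar cluster, is also made mainly of Jarid2 null cells (251 of 315, with 63 Mtf2 null cells and 1 WT cell). The clusters were not matched for day. Cluster 5 held 129 Jarid2 null cells of day 4 and 19 of day 10, and cluster 17 held 14 and 49. Kit and Dnmt3b differed between days within cluster 17, as given below. For such genes cluster and day cannot be told apart in this comparison. Of 4447 genes at 50 CPM or more in either, 1.39% (62) were more than 2-fold higher in cluster 17 and 1.01% (45) more than 2-fold lower. Of 11 germline genes, 5 were higher and none lower, with a median log2 ratio of 0.94, and Dppa3 (167 CPM in cluster 5, 1.87), Prdm1 (31.2 CPM, 1.73), and Kit (46.6 CPM, 1.41) led among the regulators. Prdm1 and Kit reached 50 CPM in cluster 17 and not in cluster 5. Rhox6 and Rhox9 were almost absent from cluster 5 (2.63 and 1.5 CPM, against 49.9 and 43.6 CPM). Ap3b2 (67.5 against 9.40 CPM), the imprinted gene Dlk1 (60.3 against 11.3 CPM, and at 0 and 4.31 CPM in Jarid2 null members of days 4 and 7), Mpped2 (52 against 9.78 CPM), and Aif1l (69.6 against 16.5 CPM) were the others with high ratios. Klhl13, Wwc2, and Sfmbt2 were also higher (344, 114, and 82.1 CPM, against 91.8, 29, and 22.2 CPM), but their level rested in large part on the Mtf2 null members, as Klhl13 stood at 920 CPM in these and at 159 CPM in the Jarid2 null members.

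Formative genes were lower in cluster 17 than in cluster 5, and naive genes were split, with 2 of 16 higher, 2 lower, and a median log2 ratio of 0.34. Among the genes with the lowest ratios, Eras, an embryonic stem cell Ras gene, stood at 13.5 against 99.7 CPM, Klf4 at 19.7 against 109 CPM, Dnmt3b at 108 against 580 CPM, and Dnmt3a at 54 against 189 CPM. The basic helix-loop-helix genes Tcf15 and Olig2 lay at 39.5 and 20.8 CPM against 179 and 82.7 CPM, Hsd17b14 at 24.9 against 120 CPM, and Crmp1 at 18.7 against 70.7 CPM. Of 8 formative genes 4 were lower and none higher (median -0.80). Members entered by 50 CPM in either cluster, so this count and median carry no test. Nanog, at 391 against 278 CPM, differed less than 2-fold, and Pou5f1 (96.7 against 91.4 CPM) and Sox2 (1105 against 1008 CPM) were close. The S and G2/M genes had a median log2 ratio of 0.00, with none of 26 more than 2-fold apart.

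Cluster 12 holds 208 WT cells among its 228, so that cluster and genotype cannot be told apart in this comparison. Of 4664 genes, 3.30% (154) were more than 2-fold higher in cluster 17 and 3.88% (181) more than 2-fold lower. Several of the furthest genes differed between whole lines. The purine salvage gene Hprt was at 585 against 17.5 CPM, and over whole libraries at 0.467 to 3.35 CPM in WT against 349 to 653 CPM in Jarid2 null libraries. The ribosomal protein gene Rplp1 was at 4620 against 498 CPM, and at 132 to 584 CPM in WT against 3391 to 4270 CPM in Jarid2 null libraries. The same held for Rpl34 and the noncoding RNA gene Gas5, which were higher in cluster 17 (316 and 504 CPM, against 65.2 and 116 CPM), and for the imprinted noncoding RNA genes Meg3 and Rian, which were lower (14.5 and 3.12 CPM, against 535 and 153 CPM).

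Dppa3 was higher than in cluster 12 (log2 ratio 2.10, 142 CPM in cluster 12), as was Elf3 (2.02, 25.9 CPM). Prdm1 and Kit also exceeded 2-fold (33.2 and 44.7 CPM in cluster 12), and 5 of 12 germline genes did so, with a median of 0.88 and 1, the synaptonemal gene Sycp3, lower (33.3 against 189 CPM). Naive genes stood further apart here than against cluster 5, with 6 of 15 higher and 1 lower (median 0.83), among them Esrrb (206 against 69.4 CPM). The calcium-binding protein gene S100a11 (91.5 against 10.3 CPM), Gng12, Rpgrip1, and Rpl11 completed the high genes. Of these, S100a11, Rpgrip1, and Rpl11 also differed between whole lines, at 12.4, 44.3, and 37.1 CPM in WT cells and 65.7, 206, and 121 CPM in the other Jarid2 null cells. The low ones included Ccnb1ip1 (1.04 against 71.2 CPM, with 90.1 CPM in WT and 7.52 CPM in the other Jarid2 null cells), the endocytic receptor gene Lrp2 (2.08 against 67.6 CPM), Car2, a carbonic anhydrase gene (44.7 against 431 CPM), Ctgf (10.4 against 110 CPM), and Podxl (5.20 against 65.2 CPM). Of 9 formative genes 5 were lower and 1, Lef1, higher, and Otx2 was read at 212 against 416 CPM.

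Within cluster 17, the Jarid2 null and Mtf2 null members were set side by side for its marker genes and for the genes furthest apart. The latter were chosen by this same ratio. Dppa3 was at 664 CPM (606.4 to 726) in Jarid2 null and 505 CPM (418 to 604.8) in Mtf2 null members, and at day 4 in both, where the libraries match in time, at 458 (349 to 589) and 495 CPM (402 to 602). The intervals do not overlap over all days and do at day 4. Prdm1 was at 121 and 98.4 CPM. Nanog was level over all days, at 388 and 398 CPM, but not at day 4, where it was at 183 CPM in Jarid2 null and 375 CPM in Mtf2 null members. Mtf2 itself was at 705 against 25.7 CPM. Jarid2 was read at 198 CPM in the Jarid2 null members, against 488 CPM in the Mtf2 null ones. The Wnt effector gene Lef1 was at 183 against 4.28 CPM and Otx2 at 268 against 38.5 CPM, and both kept that order at day 4 (91.6 against 0 CPM, and 374 against 40 CPM). The day 4 cells outside the cluster had the same order for Lef1 (167 against 28.4 CPM) and were close for Otx2 (250 against 239 CPM). AC149090.1, an uncharacterised gene, was at 169 against 38.5 CPM. Lars2, a mitochondrial tRNA synthetase gene, was at 694 against 175 CPM over all days and in the other order at day 4 (107 against 190 CPM). Cells outside the cluster had the same order for AC149090.1 (115 against 50.6 CPM) and for Lars2 (275 against 157 CPM, and 88.2 against 197 CPM at day 4).

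In the Mtf2 null members, Dnmt3l was at 454 CPM against 42.5 CPM in the Jarid2 null ones, the phosphatase gene Dusp9 at 154 against 9.61 CPM, and the imprinted gene Phlda2 at 265 against 27.4 CPM. At day 4 the order was the same for Dnmt3l (430 against 45.8 CPM), Dusp9 (150 against 30.5 CPM), and Phlda2 (255 against 7.63 CPM). The cells outside the cluster in the same day 4 libraries had this order too. They held 404 against 161 CPM of Dnmt3l, 116 against 45.6 CPM of Dusp9, and 326 against 107 CPM of Phlda2, so the order is not particular to the cluster. H19 was at 146 CPM against 0 UMIs, at least 35.3-fold higher, but came from 12% of the 25 cells and was at 10 CPM at day 4. Outside the cluster, Mtf2 null cells held 56.7 CPM of H19 and Jarid2 null cells 1.27 CPM. The Y-linked gene Eif2s3y was at 111 CPM against 0 UMIs, at least 27-fold higher, and was low in the Jarid2 null line as a whole (2.77 to 11 CPM, against 62 to 103 CPM in Mtf2 null libraries).

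Among Jarid2 null members, the summed naive markers, Nanog, and Kit were higher at each later day and formative transcripts were lowest at day 10, with 1 library per day and so no test. Nanog stood at 183 CPM at day 4, 297 CPM at day 7, and 533 CPM at day 10, and Kit at 38.2, 77.5, and 228 CPM. The summed level of 6 naive markers was 1267, 1658, and 2212 CPM, of which Klf4 did not follow the order (22.9, 8.61, and 28.8 CPM). The 5 formative markers together were at 572, 615.7, and 153 CPM, and Otx2 at 374, 422, and 127 CPM. Dnmt3b was at 145, 155, and 17.3 CPM (8.16% of the cells with a UMI at day 10, against 42.9% at day 7). Dppa3 was at 458, 693, and 686 CPM, Tfap2c at 321, 271, and 314 CPM, and Prdm1 at 137, 159, and 89.3 CPM. Cells of day 4 were read more deeply, at a median of 10231 UMIs, than those of days 7 and 10 (6821 and 5892), and the CPM values are scaled for this.

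The widest differences between days 7 and 10 were partly in genes of other cells. Hba-x was at 0 UMIs at day 7 and at 133 CPM at day 10, at least 10.3-fold higher, with a UMI in 63.3% of the 49 cells. The 5 globin genes together reached 239 CPM in these cells, and the other cells of the day 10 library held 1593 CPM of Hba-x. Whether these UMIs came from the cells of the cluster themselves was not tested. Dlk1 was at 153 against 4.31 CPM, and the other cells of the day 10 library held 1559 CPM of it, so the same holds for this gene. Nr5a2 was at 184 against 38.8 CPM, the Sox gene Sox21 at 104 against 21.5 CPM, and Ech1, a fatty acid oxidation gene, at 118 against 25.8 CPM. The lower genes at day 10 beside Dnmt3b were Rnf128, a ubiquitin ligase gene (5.76 against 121 CPM), the phospholipase gene Plcd1 (25.9 against 133 CPM), 9330151L19Rik (2.88 against 112 CPM), and 4930447C04Rik (20.2 against 116 CPM).

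The bulk RNA-seq of directed differentiation took no part in the clustering, and there the leading genes of cluster 17 were tested between genotypes. These were monolayers of Jarid2 null, Mtf2 null, and WT cells steered toward mesoderm or endoderm, with 2 libraries per group. The authors describe the 2 as technical duplicates, so that p-values measure the spread between those alone. The libraries hold no embryoid body cells, and at day 0 cluster 17 held 2 of 337 Jarid2 null single cells. A gene not called in these monolayers therefore cannot show whether it stands out in cluster 17. Of the 15 leading genes, 14 were tested, and none was called between Jarid2 null and WT cells (a change of over 2-fold either way with a Benjamini-Hochberg adjusted p under 0.001) by edgeR or by DESeq2, in undifferentiated or 48 h cells of either series. Of all genes, edgeR called 0.370% (68 of 18361) in undifferentiated and 0.169% (31) in 48 h cells of the mesoderm series, and 0.742% (143 of 19261) and 0.125% (24) in those of the endoderm series. At an unadjusted p under 0.05, 0 of the 14 were higher and 8 lower in undifferentiated cells of the mesoderm series, 0 and 6 at 48 h, 1 and 6 in undifferentiated cells of the endoderm series, and 3 and 1 at 48 h. Of all genes tested, 12.8% were higher and 8.27% lower at that p in the first of these comparisons, 7.01% and 6.64% in the second, 13.5% and 9.78% in the third, and 11.1% and 10.7% in the fourth.

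Dppa3 was read at a low level in these monolayers. In undifferentiated cells of the mesoderm series it was read at 1.09 and 1.72 CPM in the Jarid2 null libraries and at 1.46 and 2.09 CPM in the WT libraries, and at 48 h at 3.18 and 3.13 CPM against 5.17 and 3.53 CPM. In the endoderm series it was at 1.16 and 0.974 CPM against 1.36 and 2.02 CPM, and at 48 h at 0.46 and 0.208 CPM against 0.658 and 0.496 CPM. The groups overlapped in undifferentiated cells of the mesoderm series, and the Jarid2 null libraries were the lower ones in the other 3 comparisons, none of which passed the test (log2 fold changes -0.35, -0.53, -0.56, and -0.82, with adjusted p from 0.351 to 0.654 by edgeR). Ifitm1 had log2 fold changes of -0.98, -1.23, -0.89, and -0.54 in the same order, and Nanog of -0.40, -0.84, -0.48, and -0.21. The adjusted p by edgeR was under the threshold for Ifitm1 in undifferentiated cells of the endoderm series (9.9e-05) and for Nanog at 48 h of the mesoderm series (4.6e-04), but neither change reached 2-fold, so neither gene was called. Without the filter on low counts, edgeR called Ifitm1 lower at 48 h of the mesoderm series (log2 fold change -1.25), and without WT replicate 2 it called Nanog lower there (-1.02). In the mesoderm series, the libraries labelled Jarid2 null held 0.11 to 0.921 CPM of Hprt, as low as the WT ones (0.0845 to 0.545 CPM), and those labelled Mtf2 null held 53.2 to 91.4 CPM, while the single-cell libraries labelled Jarid2 null held 349 to 653 CPM. Jarid2 itself was not called either (log2 fold change -0.40, 0.09, -0.39, and 0.19). In single cells of day 0, Jarid2 was at 146 CPM in the Jarid2 null and 594 CPM in the WT library. The bulk values are therefore not taken as those of the Jarid2 null line of the single-cell libraries. Whether the same line was used for both was not tested.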

How the data were processed

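For single cells, the authors mapped SORT-seq reads to GRCm38 with Bowtie2, counted UMIs per gene with HTSeq, filtered on genes per cell (at least 720 in every kept cell), regressed out library, and clustered with Seurat. What they deposited is a table of UMI counts, all whole numbers, with 15830 genes, 4949 cells, and the cluster of each. Of 5343 wells with UMIs on at least 500 genes, 4949 are in the table, the number the study gives, although a sentence of its methods states smaller numbers. Doublets were not called, since cells were sorted singly. Libraries of directed differentiation were quantified by the authors with Salmon as estimated counts. Of these 74.9% (mesoderm) and 73.1% (endoderm) are whole, and all were rounded here.

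UMIs were summed over cells and divided by the total (CPM), with exact 95% Poisson intervals, and ratios are log2 of CPM plus 5. Shares carry exact 95% binomial (Clopper-Pearson) intervals. A count of 0 allows up to 3 counts. Intervals cover counting error alone. Cells were also thinned to 2500 UMIs (seed 7). Genes are named by rank of the ratio among those with at least 50 CPM and a UMI in at least 10% of cells of the higher group, 15 higher and 8 lower against all other cells, 10 and 8 against clusters 5 and 12, and 5 each way (at least 100 CPM) between genotypes and between days 7 and 10. Members of the listed pathways, the targeted genes, and some extremes of single libraries are named too, the last chosen after their values were seen. A gene that this rule names is not reported here. The cells and the gene lists were chosen with earlier results of these data known. Counts and medians of a list take members with 50 CPM or more in either group. A member can enter through the group where it is high, so such counts and medians carry no test. Mitochondrial genes are not in the table used here. Coordinates are from the GENCODE annotation of GRCm38.

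Each directed series of 24 libraries (9111880 to 16898264 counts in the mesoderm and 9889592 to 16372804 in the endoderm series) was fitted with edgeR 4.0.16 in R 4.3.3 (TMM, quasi-likelihood F test, filterByExpr with minimum count 10 and total 15, Benjamini-Hochberg adjustment), with 1 mean per genotype and time. On simulated data, 81% of 4-fold and 30% of 2-fold changes were recovered in the undifferentiated comparison of the mesoderm series over 18361 genes, and 86% and 30% in that of the endoderm series over 19261 genes. DESeq2 1.42.0, RLE scaling, no count filter, a replicate block, the 2 groups alone, and leaving out each library were alternatives. Python 3.11.15, numpy 2.4.6, pandas 2.3.3, and scipy 1.17.1 were used. The bulk embryoid body table was not used here.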

Additional observations from a re-analysis of the deposited data

How the results depend on the processing

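The log2 ratio of Dppa3 between cluster 17 and all other cells was 2.23. It was 2.41 with cells thinned to 2500 UMIs, 2.46 as a mean of per-cell CPM, 2.88 with Jarid2 null cells alone, and 2.95 without the Eed null cells, which hold the other cluster rich in Dppa3. Without each library with at least 10 members in turn it was 2.12 to 2.28. Against cluster 5 the ratio was 1.87, and 2.05 as a mean of per-cell CPM. The log2 ratio of Nanog against all other cells was 1.04, and 1.25 as a mean of per-cell CPM. Without each library it was 0.71 to 1.15, and the lowest was without the Jarid2 null library of day 10. Leaving out libraries and Eed null cells was chosen after seeing the data. A ratio of Jarid2 null cells alone could not be had against cluster 12, which holds 5 of them. Of the 15 leading genes, 13 were also among the first 15 with a pseudocount of 20 CPM and 13 by mean per-cell CPM. The share of Jarid2 null cells in cluster 17 was 8.17% of kept cells and 7.37% of wells with at least 500 genes.

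In the directed libraries, the counts of genes called between Jarid2 null and WT depended on the processing, and no leading gene was called by filtered edgeR or by DESeq2 with all libraries. For undifferentiated cells of the mesoderm series 68 genes were called, 109 by DESeq2, 247 without a count filter, and 5 to 50 without 1 library (5 without Jarid2 null replicate 1, and 28 and 31 without WT replicates 1 and 2). At 48 h 31 were called, 147 without the filter, 0 in edgeR with the 2 groups alone (1793 at an unadjusted p under 0.05, and 43 called by DESeq2 with all libraries), and 10 to 23 without 1 library (16 and 10 without Jarid2 null replicates 1 and 2, 14 without WT replicate 1). For undifferentiated cells of the endoderm series 143 were called, 300 without the filter, 72 with the 2 groups alone, and 52 to 144 without 1 library (52 without Jarid2 null replicate 1, and 87 and 70 without WT replicates 1 and 2). At 48 h 24 were called, 53 by DESeq2, 166 without the filter, 10 with the 2 groups alone, and 6 to 114 without 1 library (14 and 6 without Jarid2 null replicates 1 and 2, and 114 and 7 without WT replicates 1 and 2). The cause was not tested. With the replicate number as a block the counts were 55, 28, 145, and 30. The numbers only name duplicates, with correlations of their deviations of 0.32, 0.15, 0.25, and 0.07. Nanog in the mesoderm series at 48 h passed the call without WT replicate 2 (log2 fold change -1.02), and Ifitm1 there without the filter (-1.25). The other 105 refits of Dppa3, Nanog, and Ifitm1 kept their direction and stayed uncalled.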
